A study of Drosophila melanogaster with 12 samples.

Results

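The c-Jun N-terminal kinase (JNK) pathway and its AP-1 transcription factors were followed in Kc167 cells through 8 genes: the kinases msn, hep and bsk, the AP-1 subunits kay and Jra, and the reported pathway targets puc, Gadd45 and Mmp1. Probe sets were matched to these genes by gene ID and current symbol, and 12 of the 18769 probe sets tested belong to 7 of the 8 genes. No probe set was matched to Mmp1, which encodes a secreted matrix metalloproteinase, and it was not analysed here. There are 3 probe sets each for hep and bsk, 2 for kay and 1 each for puc, Jra, msn and Gadd45. A gene's values below are those of its probe set with the highest mean over the arrays, unless another probe set is named.

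The JNK pathway is a relay of protein kinases that answers stress, wounding and tissue closure. In Drosophila, Misshapen (msn), a Ste20-family kinase, acts at the top of one branch, Hemipterous (hep) is the JNK kinase, and Basket (bsk) is JNK itself, which phosphorylates the AP-1 subunits Jun-related antigen (Jra) and Kayak (kay, the Fos protein). AP-1 raises puckered (puc), a phosphatase that switches Basket off again, so that the puc transcript is widely used as a readout of the pathway. In fly blood cells the pathway is known for its part in the formation of lamellocytes, the large flat cells that encapsulate parasites.

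The cells were of the Kc167 line, a Drosophila line of embryonic origin with blood cell properties, and each group was grown in Schneider's medium. They received UPD conditioned medium, which carries Unpaired, a ligand of the JAK/STAT pathway, or Mock conditioned medium for 30 min, and then fresh medium. RNA was extracted at 2, 4 or 10 h after the exposure began. The groups were therefore UPD and Mock at 2 h, UPD and Mock at 4 h, and UPD and Mock at 10 h, with 2 biological replicates each, on 12 Affymetrix arrays. Values are log2 values as deposited. An SD is over the 2 replicate arrays, which the labels call biological duplicates without saying whether they came from separate cultures.

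Of the blood cell markers, srp, Hml, Pxn, crq and Col4a1 had means over the 12 arrays of 6.50 to 9.64, while NimC1, He and eater averaged 1.71, 1.07 and 2.86. Of the crystal cell genes lz and PPO1 averaged -2.31 and -1.36 and PPO2 2.5. Of the lamellocyte list atilla averaged -1.01, while msn and cher, which other cells also express, averaged 7.62 and 7.68. Of the neuronal genes nSyb averaged -3.13 and elav 6.46. Arrays at 10 h were the most variable. The median replicate SD over the 9384 probe sets above the median level came to 0.44 in UPD and 0.50 in Mock cells at 10 h, against 0.083 to 0.19 in the earlier groups. Act5C is probed at both ends of its transcript as a sign of RNA quality, and its 3′ probe set exceeded its 5′ one by 1.25 to 1.37 in UPD cells at 10 h, by 1.14 to 1.15 in Mock cells of that time, by 0.95 and 0.96 in UPD cells and 1.17 and 0.72 in Mock cells at 4 h, and by 0.71 to 0.89 at 2 h. For eIF4a, probed in the same way, the excess was 1.04 and 0.93 in UPD cells and 0.73 and 1.21 in Mock cells at 10 h. It was 0.50 to 0.87 on the arrays of 2 and 4 h. The part of RNA quality in the results at 10 h was not tested. Mock replicate 2 of 4 h stood apart in the hybridisation spikes, whose mean was 8.28 there and 9.73 to 10.76 on the other 11 arrays.

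No JNK pathway or AP-1 gene differed between UPD and Mock past the threshold at 2, 4 or 10 h. In the values as deposited all 7 genes were lower at 10 h than at 2 h in both media, and only msn in UPD medium passed the threshold. That 1 call among 12 probe sets lies near the 9.46% of all probe sets called there, and it was lost after quantile normalization. At 2 and 4 h, UPD and Mock differed by at most 0.37 on the log2 scale in each of the 7 genes. At 10 h the mean differences of puc, kay, Jra and bsk were at most 0.091 in size. Their replicates were far apart, except those of bsk in Mock medium (SD 0.0525). The 95% interval of puc ran from -1.11 to 1.05, and after quantile normalization the differences were 0.39, 0.37, 0.26 and 0.26. Without Mock replicate 1 or 2 at 10 h puc differed by -0.66 or 0.59 and Jra by 0.27 or -0.46. The hep and msn transcripts differed by -0.62 and -0.81 (UPD minus Mock) at 10 h, which did not pass. In limma, with Benjamini-Hochberg adjustment over all probe sets, 0 of the 12 probe sets had an adjusted p under 0.05 between UPD and Mock at 2 h, 0 at 4 h and 0 at 10 h, where the share called over all probe sets was 0.00533%, 0.0% and 1.06%. At an unadjusted p under 0.05 the counts of member probe sets were 0, 0 and 2. The shares of all probe sets were 4.42%, 4.03% and 17.2%, so that 2 of 12 at 10 h is near that share. Those shares include dim probe sets, while all members but the dimmest hep probe set lie above the median level. A fit of only the 9384 probe sets above that level, whose p-values differ, had 3154 under 0.05 at 10 h, msn and the second hep probe set among them. Averaged over the 3 times the count was again 0 at both thresholds, where the shares of all probe sets were 0.0% and 10.8%. In bulk RNA, fewer cells of a type and less RNA per cell cannot be told apart.

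**Figure D1:**
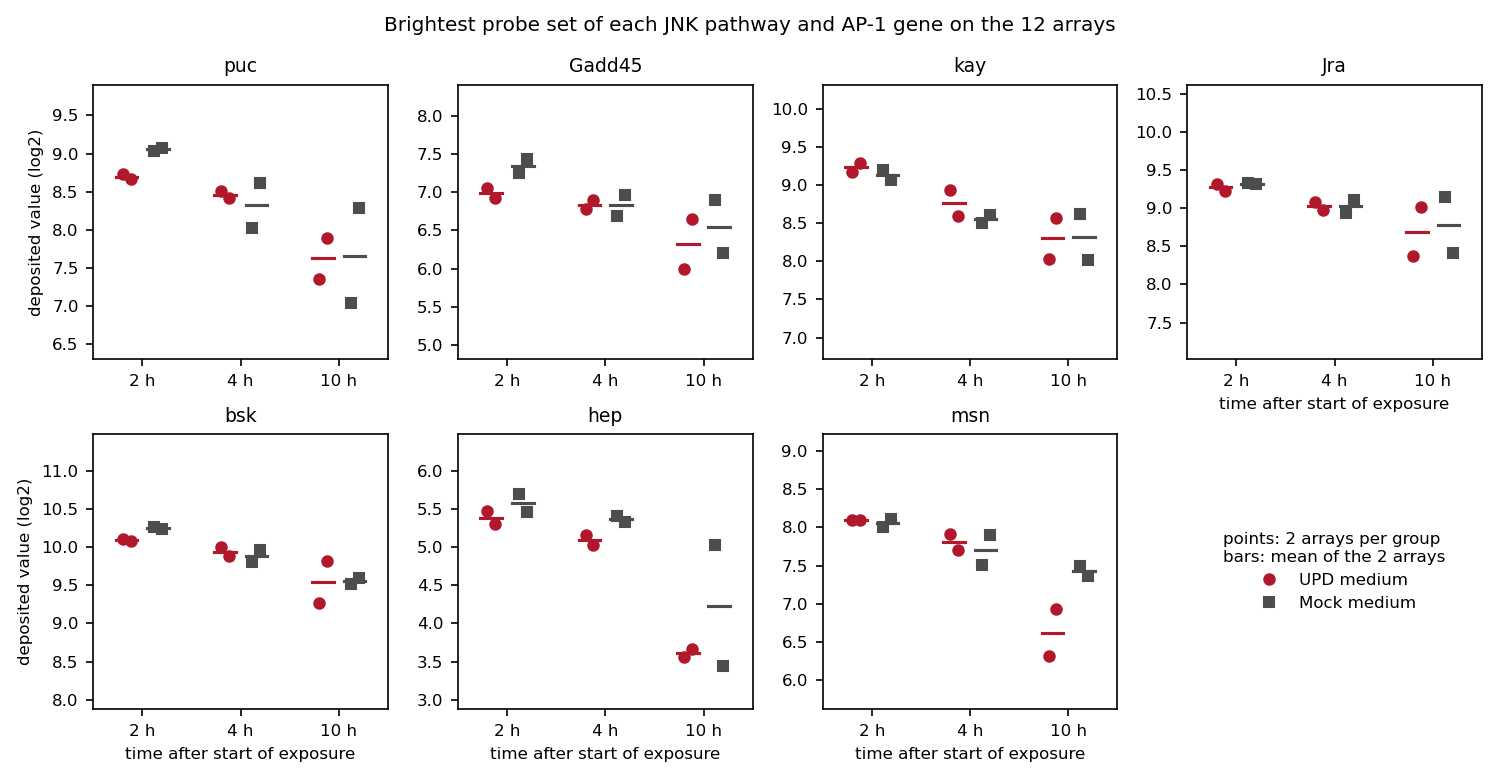
Deposited log2 values (vertical axis) of the brightest probe set of 7 genes by time after the start of exposure (horizontal axis). Red circles are UPD arrays and grey squares Mock arrays, 2 per group, and bars are their means. The msn arrays at 10 h stand at 6.31 and 6.93 after UPD and 7.50 and 7.36 after Mock, while in puc, Gadd45, kay, Jra, bsk and hep the media overlap at 10 h.

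The upstream kinase gene msn measured 8.10 and 8.10 in UPD cells at 2 h, against 8.0 and 8.11 in Mock cells. At 4 h it stood at 7.92 and 7.70 after UPD and 7.51 and 7.91 after Mock. The media overlapped at both times. At 10 h both UPD arrays (6.31 and 6.93) lay below both Mock arrays (7.50 and 7.36). The difference at 10 h was -0.81 ± 0.33 (SE) on the log2 scale, or 1.75-fold lower after UPD. It did not pass the threshold (limma adjusted p = 0.259). Its 95% interval ran from -1.57 to -0.047 with the variance shared by all groups. In a fit of the 10 h arrays alone the interval ran from -2.76 to 1.14. After quantile normalization, which gives each array the same distribution of values, the difference was -0.20. Over 18 alternatives its adjusted p ran from 0.0676 to 0.87, and none passed.

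Within UPD medium msn was the 1 member called over time. It averaged 6.62 ± 0.43 at 10 h and 8.10 ± 0.0042 at 2 h (SD, n = 2 each), and fell by 1.48 ± 0.33 (SE) on the log2 scale, a 2.79-fold difference (limma adjusted p = 0.0367). In this comparison 9.46% of all probe sets were called (8.46% lower and 1.01% higher at 10 h), so that 1 call among 12 member probe sets lies near the background. After quantile normalization the fall was 0.49 and the call was lost (adjusted p = 0.152). The call was also lost in a fit of the compared groups alone (0.264), and without either UPD array at 2 h (0.186 and 0.184), either Mock array at 2 h (0.0836 each), either UPD array at 4 h (0.0772 each), either Mock array at 4 h (0.0613 each) and UPD replicate 1 at 10 h (0.117). The range over 18 alternatives was 0.000177 to 0.264, and 6 passed.

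In Mock medium msn averaged 7.43 ± 0.10 at 10 h and 8.06 ± 0.08 at 2 h, a difference of -0.63 ± 0.33 (SE) that did not pass (limma adjusted p = 0.427). Whether the difference between UPD and Mock itself varied with time was tested with limma's F test, and msn did not pass (adjusted p = 0.724). The larger decline of msn in UPD medium was therefore not shown to differ from that in Mock.

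The JNK kinase gene hep has 3 probe sets, whose mean differences between UPD and Mock at 10 h were all below 0 but unequal in size (-0.62, -2.97 and -2.65). Its brightest probe set stood at 5.47 and 5.30 after UPD and 5.70 and 5.46 after Mock at 2 h, and at 5.15 and 5.02 after UPD and 5.40 and 5.33 after Mock at 4 h. At 10 h it stood at 3.57 and 3.67 after UPD, and at 5.02 and 3.44 after Mock. The 2 Mock arrays at 10 h differed by more than any other pair of replicates of this probe set and enclosed both UPD values. The differences between UPD and Mock were -0.19, -0.28 and -0.62 at 2, 4 and 10 h, each with an SE of 0.49.

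The second hep probe set separated the media at 10 h. It read 0.72 and 3.73 on the UPD arrays and 5.43 and 4.96 on the Mock arrays at 10 h. At 2 h it had read 5.28 and 5.53 after UPD and 5.54 and 5.62 after Mock, and at 4 h 5.40 and 4.99 after UPD and 5.43 and 5.33 after Mock. The low UPD mean at 10 h rests largely on replicate 1, which at 0.72 lay far below replicate 2. The difference at 10 h was -2.97 ± 0.84 (SE), the member with the smallest adjusted p between UPD and Mock, and it did not pass (limma adjusted p = 0.125, with an unadjusted p of 0.00829).

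Over 18 alternatives the adjusted p of the second hep probe set at 10 h ran from 0.000449 to 0.666, and 3 passed. These were the filter on dim probe sets (0.0283), a variance trend with robust moderation (0.000449) and the fit without UPD replicate 2 at 10 h (0.0197). Without UPD replicate 1 at 10 h the difference was -1.46, and with quantile normalization it was -3.04. The third hep probe set is dim, with UPD arrays at -4.76 and -0.34 and Mock arrays at -0.03 and 0.24 at 10 h, a difference of -2.65 ± 1.78 (SE, limma adjusted p = 0.525), and its replicates lay far apart in most groups.

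**Figure D2:**
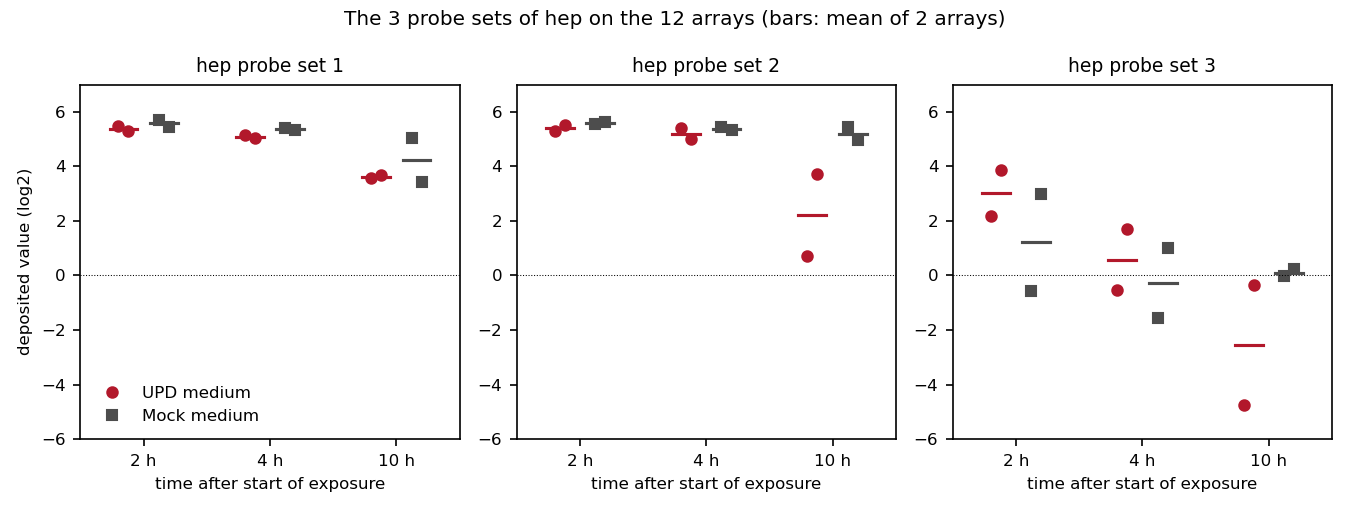
Deposited log2 values (vertical axis) of the 3 probe sets of hep, numbered from the brightest, by time after the start of exposure (horizontal axis). Red circles are UPD arrays, grey squares Mock arrays and bars their means. At 10 h the second probe set stands at 0.72 and 3.73 after UPD and 5.43 and 4.96 after Mock, whereas the UPD values of the first lie between its 2 Mock values.

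Within UPD medium the 3 hep probe sets differed between 10 h and 2 h by -1.77 ± 0.49, -3.18 ± 0.84 and -5.57 ± 1.78 (SE, log2), and each missed the threshold (limma adjusted p = 0.0637, 0.0555 and 0.0918). In Mock medium the corresponding differences were -1.34, -0.39 and -1.11 (adjusted p = 0.303, 0.888 and 0.837). Taken as the mean of its 3 probe sets, an alternative that is dominated by the dimmest, hep fell by 3.50 in UPD medium (adjusted p = 0.0275).

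The transcript of bsk, the single JNK of the fly, measured 10.10 and 10.08 in UPD cells at 2 h, below both Mock arrays (10.27 and 10.24). At 4 h it stood at 10.00 and 9.88 after UPD and 9.80 and 9.96 after Mock, and at 10 h at 9.27 and 9.82 after UPD and 9.51 and 9.59 after Mock. The media overlapped at 4 and 10 h. The differences were -0.16 ± 0.30, 0.054 ± 0.30 and -0.0072 ± 0.30 (SE) at 2, 4 and 10 h. The 95% interval at 10 h ran from -0.71 to 0.69.

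The other 2 probe sets of bsk bear on how far these values can be read. The second followed the first closely over the 12 arrays (Pearson r = 0.972 as a description; the arrays share their scaling), with differences of -0.15, 0.0048 and -0.051. The third was more variable and stood above Mock at 4 and 10 h by 0.56 and 0.57 ± 0.51 (SE) without passing. Both of its UPD arrays at 4 h (4.46 and 4.49) exceeded both Mock arrays (3.38 and 4.45), the second by little.

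The Fos gene kay stood at 9.17 and 9.29 after UPD and 9.20 and 9.06 after Mock at 2 h. At 4 h it stood at 8.94 and 8.59 after UPD and 8.50 and 8.61 after Mock. At 10 h the UPD arrays were at 8.03 and 8.57 and the Mock arrays at 8.62 and 8.02. The media overlapped at each of the 3 times. The differences were 0.098, 0.21 and -0.018 at 2, 4 and 10 h, each ± 0.35 (SE, log2), and none passed. The second kay probe set, with a mean of 2.51, differed between UPD and Mock by -0.32, -0.037 and -0.27 at 2, 4 and 10 h, each with an SE of 1.14.

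The Jun gene Jra had the smallest difference between the media at 4 h among the 7 genes, 0.0021 ± 0.36 (SE). It stood at 9.32 and 9.23 after UPD and 9.33 and 9.31 after Mock at 2 h, and at 9.08 and 8.97 after UPD and 8.94 and 9.11 after Mock at 4 h. At 10 h it stood at 8.37 and 9.02 after UPD and 9.15 and 8.42 after Mock. The media overlapped at each of these times. The spread of the replicates at 10 h was 0.46 for UPD and 0.52 for Mock (SD), and it exceeds the difference of -0.091 between the means. Over the 12 arrays Jra and kay correlated with r = 0.92, while the median r of Jra with all probe sets above the median level was 0.684. These are descriptions, and the arrays share the decline of many probe sets at 10 h.

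The feedback phosphatase gene puc measured 8.73 and 8.66 after UPD at 2 h, against 9.04 and 9.08 after Mock. At 4 h it stood at 8.51 and 8.42 after UPD and at 8.03 and 8.62 after Mock. At 10 h it stood at 7.36 and 7.90 after UPD and at 7.04 and 8.29 after Mock. The media were apart at 2 h and overlapped at 4 and 10 h. The difference of -0.37 ± 0.46 (SE) at 2 h, 1.29-fold lower after UPD, did not pass (limma adjusted p = 1), and its 95% interval ran from -1.44 to 0.71. The difference was 0.14 at 4 h and -0.033 at 10 h with the same SE.

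Gadd45, whose mammalian counterparts are stress-induced proteins that bind a kinase upstream of JNK and p38, showed the same arrangement at 2 h. It stood at 7.05 and 6.92 after UPD, below both Mock arrays at 7.25 and 7.44. At 4 h it stood at 6.78 and 6.90 after UPD and 6.69 and 6.97 after Mock, and at 10 h at 5.99 and 6.65 after UPD and 6.90 and 6.20 after Mock. The media overlapped at these later times. The difference at 2 h was -0.36 ± 0.37 (SE, limma adjusted p = 1), and those at 4 and 10 h were 0.0076 and -0.23.

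At 2 h, then, puc, Gadd45 and bsk had both UPD arrays below both Mock arrays, as did 5 of the 11 member probe sets above the median level (all but the third of hep), and 0 had both above. Among all probe sets above the median level, 44.3% had both UPD arrays below both Mock arrays at 2 h and 6.79% had both above, so that 5 in 11 is near the background. At 4 h 1 of the 11 lay below (hep) and 1 above (the third bsk probe set), where the shares of all were 15.9% and 17.9%. At 10 h 2 of the 11 lay below (msn and the second hep probe set) and 0 above, where the shares were 36.8% and 6.29%. The median difference at 2 h was -0.16 over the 12 member probe sets and -0.11 over all probe sets above the median level. After quantile normalization puc, Gadd45 and bsk differed by -0.31, -0.23 and -0.11 at 2 h. The arrays of 10 h widen the SE of the shared model. In a fit of the 8 arrays of 2 and 4 h with the filter on dim probe sets, added after the data were seen, the difference at 2 h was -0.37 ± 0.20 for puc and -0.36 ± 0.13 for Gadd45 (SE), and neither passed (limma adjusted p = 0.823 each). That fit called 0.0426% of its probe sets at 2 h and 0.16% at 4 h, and 0 members at either time. Its 95% intervals at 4 h were -0.35 to 0.64 for puc, -0.14 to 0.57 for kay and -0.25 to 0.25 for Jra. Over 20 alternatives the adjusted p at 2 h ran from 0.72 to 1 for puc and from 0.762 to 1 for Gadd45.

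**Figure D3:**
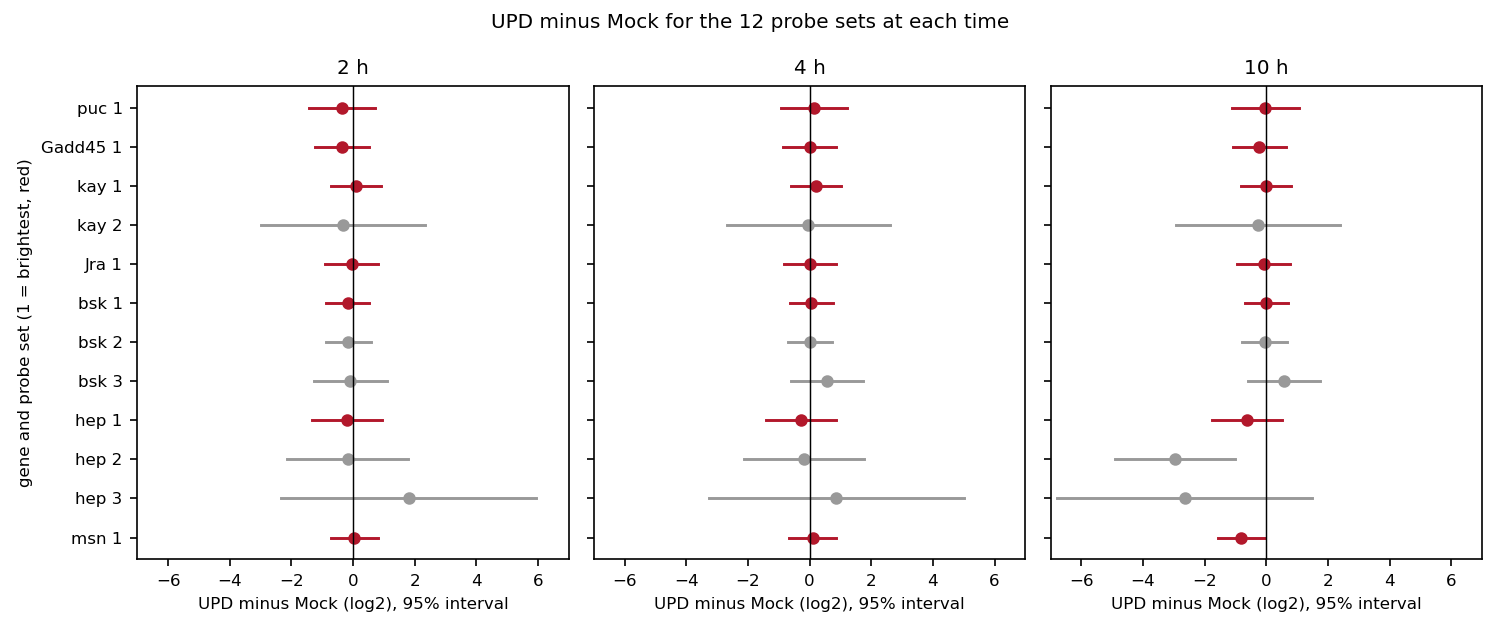
UPD minus Mock on the log2 scale (horizontal axis) for the 12 probe sets (vertical axis, numbered from the brightest of each gene) at 2, 4 and 10 h. Points are limma estimates, lines their 95% intervals, and the brightest probe set of a gene is red. Intervals that leave out 0 occur only at 10 h, for msn (-1.57 to -0.047) and the second hep probe set (-4.92 to -1.02). The intervals rest on a variance shared by all groups. In a fit of the 10 h arrays alone both include 0 (-2.76 to 1.14 and -5.94 to 0.011).

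In the values as deposited the 7 genes had lower means at 10 h than at 2 h in both media, with both arrays at 10 h below both at 2 h for each of the 7. In UPD medium the differences ran from -0.55 for bsk and -0.58 for Jra, through -0.67 for Gadd45, -0.93 for kay and -1.06 for puc, to -1.48 for msn and -1.77 for hep. In Mock medium they ran from -0.54 for Jra to -1.40 for puc, and 0 of the 12 probe sets passed in limma, where 0.0% of all probe sets were called. At an unadjusted p under 0.05 there were 5 of the 12 in each medium, where the share of all probe sets was 26.9% in UPD and 14.4% in Mock. These shares include dim probe sets, while all members but the third hep probe set lie above the median level. A fit of only the 9384 probe sets above that level, whose p-values differ, had 4652 under 0.05 in UPD and 2498 in Mock.

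Many other probe sets were lower at 10 h as well. Both arrays at 10 h lay below both at 2 h in 66.9% of all probe sets above the median level in UPD medium and in 49.3% in Mock medium. The median difference over the 12 member probe sets was -1.0 in UPD and -0.80 in Mock, and over all probe sets above the median level it was -0.80 in UPD and -0.41 in Mock. With quantile normalization the members' medians became -0.24 in UPD and -0.41 in Mock, and those of all probe sets above the median level -0.032 and 0.026. In that setting Gadd45 was 0.42 and Jra 0.043 above its level at 2 h in UPD medium, so the direction for these 2 genes depends on the scaling. In Mock medium puc kept a difference of -0.93 after quantile normalization, with a replicate SD of 0.89 at 10 h as deposited. It passed there only with a variance trend and robust moderation (adjusted p = 0.00606; range over 18 alternatives 0.00606 to 0.673).

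**Figure D4:**
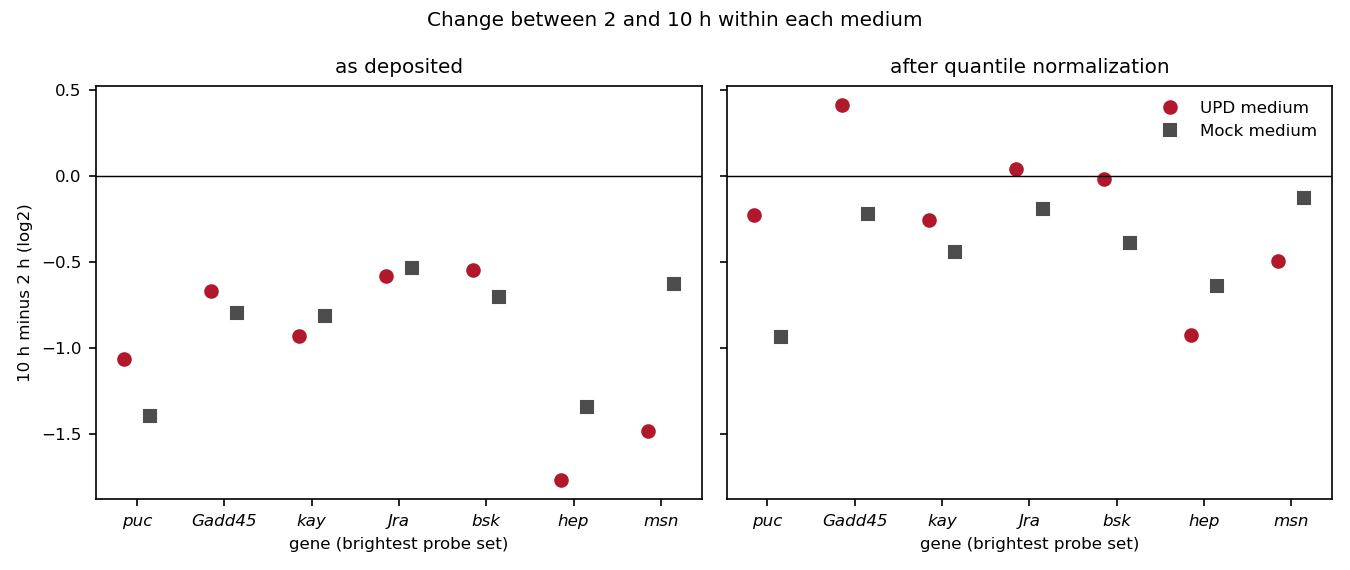
Difference between 10 h and 2 h on the log2 scale (vertical axis) for the brightest probe set of 7 genes (horizontal axis), in UPD medium (red circles) and Mock medium (grey squares), as deposited and after quantile normalization. As deposited all points lie below 0, from -0.54 to -1.77. After quantile normalization Gadd45 and Jra lie above 0 in UPD medium.

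In UPD medium replicate 1 was below replicate 2 in 11 of the 12 probe sets at 10 h, as were 82.8% of all probe sets above the median level. In Mock medium at 10 h replicate 1 was below replicate 2 in 5 of the 12, as were 30.8% of all such probe sets. Replicate 1 was the higher one for kay, Jra, Gadd45, hep and msn and the lower one for puc and bsk. Over the 12 arrays puc and bsk correlated with r = 0.901, and puc and Jra with 0.527, given as a description. The genes whose values ran most like those of puc over the 12 arrays, among probe sets above the median level, were Panx, glec and koi, with Pearson r of 0.993, 0.988 and 0.985, against a median r of 0.473. For bsk they were IntS10, Exo70 and key (0.992, 0.987 and 0.985, against a median of 0.638), where key encodes a regulatory subunit of the IκB kinase complex in the Imd pathway.

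For the AP-1 subunits the most similar profiles over the 12 arrays were CG11357, Nop60B and CG10286 for kay (r = 0.98, 0.975 and 0.973) and CG2767, ste24a and Sptr for Jra (0.992, 0.983 and 0.981). For msn they were sigmar, Irk1 and C3G (0.988, 0.987 and 0.986), for hep Ak1, shep and ReepA (0.984, 0.969 and 0.965), and for Gadd45 CG18747, Dronc, the gene of an initiator caspase, and CG11200 (0.971, 0.971 and 0.97). The median r over all such probe sets lay between 0.645 and 0.75 for these 5 genes.

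Of 18 listed genes that act upstream of the JNK kinases 13 were measured, of 12 scaffolds and modulators 9, of 18 reported JNK or AP-1 targets 13, and of 8 genes of the p38 branch and other stress factors 7. Between UPD and Mock 0 members of each of the 4 lists passed in limma in either direction at 2, 4 or 10 h. At an unadjusted p under 0.05 there were 7 upstream genes, 4 scaffolds and modulators, 4 targets and 0 of the p38 list at 10 h. The share of all probe sets was 17.2%, which includes dim ones, while most list members lie above the median level. With the filter on dim probe sets, where p-values differ, 3154 of 9384 were under 0.05. The median differences at 10 h were -0.95 for the upstream genes, -1.09 for the scaffolds and modulators, -0.91 for the targets and -0.21 for the p38 branch, beside -0.41 for all probe sets above the median level. At 4 h the same medians were 0.024, -0.23, -0.075 and 0.092, beside 0.019.

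The list member with the smallest p at 10 h was wgn among upstream genes, Cka among scaffolds, Ets21C among targets and Keap1 in the p38 list. The TNF receptor gene wgn stood at 6.93 and 7.54 after UPD, against 8.87 and 8.59 in Mock, a difference of -1.49 ± 0.31 (SE, limma adjusted p = 0.0709). Cka, a scaffold that links JNK to AP-1, stood at 7.10 and 7.58 after UPD, against 8.97 and 8.94 in Mock, a difference of -1.61 ± 0.30 (adjusted p = 0.0537). In wgn, Cka and Ets21C both UPD arrays were below both Mock arrays by more than the spread of the replicates. These genes were chosen for their small p, so that the separation is no further support. Among all probe sets above the median level 36.8% had both UPD arrays below both Mock arrays at 10 h. The ETS factor gene Ets21C stood at 4.26 and 4.50 after UPD and 6.08 and 5.58 in Mock (-1.45 ± 0.30, adjusted p = 0.0709). Keap1, a regulator of the oxidative stress response, differed by -0.54 (adjusted p = 0.481).

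At 2 h the corresponding genes were wgn (-0.37), syd, a JNK-interacting motor adaptor (-2.32), and Hsp68, a stress-induced heat shock gene (-1.15). In the p38 list it was lic, the gene of a kinase that acts on p38 (-0.22). Hsp68 stood at 5.78 and 5.84 after UPD and 7.19 and 6.74 in Mock, and syd, which is dim, at 2.02 and 1.62 after UPD and 3.96 and 4.32 in Mock. Both had their UPD arrays below their Mock arrays, and neither passed (limma adjusted p = 0.865 and 1). At 4 h, where none passed either (adjusted p = 1), the genes were wgn (-0.34), the JNK scaffold gene Aplip1 (-1.33), Mmp2, a second matrix metalloproteinase gene (2.08 ± 1.44, SE, with values between -2.61 and 2.43 over the arrays), and foxo (0.48).

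Within UPD medium 12 members of the 4 lists were called lower at 10 h than at 2 h as deposited, and these calls depend on the setting. After quantile normalization only Cka and Mekk1 of the 12 still passed, and without UPD replicate 1 at 10 h the same 2 genes. In the fit of the compared groups alone none of the 12 passed (adjusted p 0.242 to 0.284), nor did any without either UPD array at 2 h (0.127 to 0.217), either Mock array at 2 h (0.055 to 0.099) or either UPD array at 4 h (0.0502 to 0.0921). Without either Mock array at 4 h 5 passed. Of the 13 upstream genes 5 were called lower, namely the kinase genes Mekk1, slpr and Ask1 and the adaptor genes Traf4 and Tab2. With gene means 11 of the 12 passed. Traf4, which has 2 probe sets, did not (limma adjusted p = 0.691), and its mean was not lower at 10 h. Of the 9 scaffolds and modulators Cka, raw and Axud1 were called lower. Of the 13 targets the ETS factor gene Ets21C, the receptor gene Pvr and the filamin gene cher were, and of the 7 genes of the p38 list Keap1 was. No member of these lists was called higher at 10 h, although 2 of the targets had higher means there. Mekk1 stood at 5.40 and 6.42 at 10 h, against 8.35 and 8.24 at 2 h, and fell by 2.38 ± 0.37 (SE, limma adjusted p = 0.0194). The mixed-lineage kinase gene slpr stood at 6.24 and 6.79 at 10 h and 8.35 and 8.39 at 2 h (fell by 1.85 ± 0.34, adjusted p = 0.0252). These falls stand beside a median of -0.80 over all probe sets above the median level and beside the 8.46% of all probe sets called lower. With the filter on dim probe sets 3761 of 9384 were called lower, and the same 12 genes passed there too.

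The blood cell markers Col4a1 and Pxn were lower after UPD than after Mock at 10 h, 2 of 8 such markers measured, with differences of -2.33 and -1.87 (log2; limma adjusted p = 0.0416 and 0.0477), and neither passed in a fit of the 10 h arrays alone (adjusted p 0.63 to 0.678) or without any one array of 2 or 4 h, UPD replicate 1 at 10 h or Mock replicate 1 at 10 h (0.085 to 0.128). Pxn also missed the threshold with a common median (0.0553) and as a mean of its probe sets (0.455). The other 6 did not pass, with differences of -0.74 for srp, -1.25 for Hml, -0.27 for crq, -0.14 for NimC1, -2.47 for He and 1.86 for eater. Over all probe sets 1.06% were called between UPD and Mock at 10 h. Of the 8 markers 6 lie above the median level. With the filter on dim probe sets 1718 of 9384 were called lower after UPD, and Col4a1 and Pxn passed there too. The crystal cell genes lz, PPO1 and PPO2 differed by -1.58, 1.30 and 0.77, and none passed. Of the lamellocyte list, which holds msn itself, the filamin gene cher differed by -1.39 ± 0.36 (SE, adjusted p = 0.103), and atilla stood at 1.01 after UPD and -1.22 in Mock at 10 h as a dim probe set with replicates far apart (adjusted p = 0.606). Of dome, which encodes the receptor for Unpaired, UPD cells had 8.61 and Mock cells 8.07 at 2 h. At 4 h UPD cells had 8.57 and Mock cells 7.65, a difference of 0.92 ± 0.31 (SE), with both UPD arrays above both Mock arrays. At 10 h UPD cells had 6.72 and Mock cells 7.70. The dome arrays were also apart at 2 h, with UPD above, and at 10 h, with UPD below. Among all probe sets above the median level 6.79% and 17.9% had both UPD arrays above at 2 and 4 h. At 10 h 36.8% had both below. None of the dome differences passed, despite these separations (limma adjusted p = 0.9999 at 2 and 4 h and 0.161 at 10 h). The part of these markers and of dome in the values of msn and hep was not tested.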

How the data were processed

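Total RNA of Kc167 cells was hybridised to Affymetrix arrays, and each array was assigned to medium, time and replicate from its title. The authors deposited 1 log2 value per probe set and array. The base was inferred from the range of the values (-15.82 to 13.96), while summarization and normalization were not given in the sources used here. Each of the 6 UPD arrays has the median 2.33 and each of the 6 Mock arrays 2.38, as left by a scaling to 1 median per medium. Values have no floor and no detection calls were used.

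Of 18952 probe sets, 183 controls were left out. Gene names are those of the platform annotation at GEO, brought up to date through gene IDs in RefSeq's Release 6 table (13544 of 13647 single-gene probe sets matched). In limma 3.58.1 (R 4.3.3) 6 group means were fitted to all 12 arrays with empirical Bayes moderation (6 residual degrees of freedom, 1.54 from the prior, whose SD was 0.57). P-values are two-sided, Benjamini-Hochberg adjusted over 18769 probe sets, with a threshold of 0.05. The number of arrays limits the precision, and SE at 10 h shares a variance with the less variable earlier arrays. The code was tested on simulated arrays of equal spread at each time, so that this test does not bear on the larger spread at 10 h. The genes, lists and alternatives were chosen with earlier results of these data known. Named genes are all members, for each list and time the gene with the smallest p, list members that passed, and for each member the 3 genes with the highest Pearson r. Alternatives were quantile normalization, a common median, a filter keeping 9384 probe sets, a variance trend with robust moderation, the compared groups alone, the replicate number as a block, gene means, and each array left out. A fit of the 8 arrays of 2 and 4 h, with and without that filter, was added after seeing the data.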

Additional observations from a re-analysis of the deposited data

How the results depend on the processing

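Between UPD and Mock, 0 member probe sets were called at 2 h, at 4 h, on average and for the difference between times under each alternative tried. At 10 h the filter on dim probe sets, the variance trend with robust moderation and the fit without UPD replicate 2 at 10 h each called 1, the second hep probe set (0 to 1 without single arrays). Over time in Mock the variance trend called 1, puc. Over time in UPD medium the main count of 1 became 0 with quantile normalization, with the compared groups alone and with the replicate block, 4 with the filter, 6 with the variance trend, 2 with gene means, and 0 to 3 without single arrays. With the block the adjusted p of msn over time in UPD medium was 0.102, and none of the 12 list genes called in that comparison passed (0.0765 to 0.117), nor did Col4a1 and Pxn between UPD and Mock at 10 h (0.332 to 0.335). The block changed no other count of members. Same-numbered UPD and Mock arrays did not deviate together (correlations -0.037, -0.033 and -0.048 at 2, 4 and 10 h). The numbers therefore gave no sign of pairing, but these values cannot show that the cultures were not run in pairs. The background varied more. Over all probe sets the 199 calls between UPD and Mock at 10 h became 578 with quantile normalization, 111 with a common median, 1804 with the filter, 1899 with the variance trend, 622 with gene means, 0 with the 10 h arrays alone or the replicate block, and 0 to 468 without single arrays. The 1776 calls over time in UPD medium became 471 with quantile normalization, 3830 with the filter, 4020 with the variance trend, 0 with the compared groups alone, 1 with the replicate block and 1 to 2902 without single arrays. The variance trend called 845 over time in Mock, 351 on average, 4 at 2 h and 6 at 4 h, where the main counts were 0, 0, 1 and 0.

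Small differences that were not called changed sign. A common median moves all UPD minus Mock differences of a time by the same amount, upward here. For the other settings the cause was not tested. With quantile normalization Jra was 0.032 at 2 h and -0.057 at 4 h, bsk -0.049 and Gadd45 -0.00083 at 4 h, and at 10 h puc 0.39, kay 0.37, Jra 0.26, bsk 0.26 and Gadd45 0.41. With a common median Jra was 0.0025 at 2 h, and puc 0.018, kay 0.033 and bsk 0.044 at 10 h. With gene means kay was -0.11 and hep 0.48 at 2 h, hep 0.13 at 4 h and bsk 0.17 at 10 h.

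Leaving out single arrays also turned small differences, which ranged at 2 h from -0.093 to 0.0015 for Jra and -0.012 to 0.095 for msn. At 4 h they ranged from -0.15 to 0.44 for puc, -0.084 to 0.088 for Jra, -0.097 to 0.30 for msn, -0.027 to 0.14 for bsk and -0.13 to 0.15 for Gadd45. At 10 h they ranged from -0.66 to 0.59 for puc, -0.32 to 0.28 for kay, -0.46 to 0.27 for Jra, -1.41 to 0.17 for hep, -0.28 to 0.27 for bsk and -0.58 to 0.12 for Gadd45.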
